A study of Homo sapiens with 6 samples.

Results

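Of the 28104 transcript models that met a count minimum in aglaiacized cells, 220 (0.783%) held more ribosome footprints in aglaiacized than in naive HEK293T-REx cells when both were given the solvent DMSO, and these gained models were then followed under RocA. A transcript model is a set of rows of the deposited tables that share the same footprint counts in all 6 libraries, and the tables hold 38543 such models in all. A model entered the group when its mean count over the aglaiacized DMSO libraries was at least 50, when its DMSO ratio was at least 0.8, and when both aglaiacized DMSO values lay above both naive DMSO values. The DMSO ratio is the log2 of aglaiacized over naive mean CPM (counts scaled to a common library total, with 1 CPM added to each), after subtracting its median over the 28104 models. The members were thus chosen by their DMSO values, and the gain in DMSO is a description. The RocA libraries played no part in the choice.

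The libraries come from HEK293T-REx, an established line from human embryonic kidney that carries the tetracycline repressor, and were made by RNase I footprinting and pelleting of ribosomes. Naive and aglaiacized cells each had 2 libraries from DMSO and 1 library from RocA. The labels leave unsaid whether the paired DMSO libraries were separate cultures, and p-values here reflect a spread that may be technical. The labels give no dose, no time of treatment and no account of how the aglaiacized line was made or whether it is 1 clone. Background on the study gives the word as standing for cells whose eIF4A1 carries residues of the Aglaia protein, and this was not checked against eIF4A counts here, since the files do not pair their identifiers with gene names.

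Ribosome profiling reads the mRNA fragments left under ribosomes after nuclease treatment, so footprints on a coding region follow the ribosomes translating it. The initiation factor eIF4A is a helicase that opens structure in the 5′ UTR ahead of the scanning ribosome. Rocaglamide A (RocA), made by Aglaia plants, clamps eIF4A onto polypurine RNA and blocks scanning there, and the Aglaia protein has substitutions that weaken this clamp. Footprints depend on mRNA abundance and on translation together, and no mRNA amounts were used here.

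Library totals over all models were 18459239 and 18731972 in naive DMSO, 21337146 and 28428267 in aglaiacized DMSO, and lower under RocA, at 8219273 (naive) and 8316797 (aglaiacized). All values are relative to the other models of the same library. None of the 251 row identifiers of the members was found in the reference gene table, so the members stay without gene names, and no sequence is shown for them.

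The gained models were spread over a wide range of abundance, and most of the gains were modest. In naive DMSO the members ran from 0.488 CPM through a median of 9.83 CPM to 658 CPM in replicate 1, and from 0.320 through 10.2 to 636 CPM in replicate 2. In aglaiacized DMSO they ran from 1.59 through 18.2 to 1060 CPM in replicate 1, and from 2.74 through 20.1 to 1149 CPM in replicate 2. Together the members took 0.438% and 0.438% of all counts in the naive DMSO libraries and 0.777% and 0.854% in the aglaiacized ones. Their DMSO ratio had a median of 0.89 and ran from 0.80 to 2.02, with 176 members under 1 and 44 at 1 or more. Just inside the threshold stood ratios of 0.80008, 0.80009 and 0.80014, and just outside stood 0.79961, 0.79872 and 0.79866. The requirement of no overlap removed none, since the number at or past the ratio threshold was already 220.

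**Figure D1:**
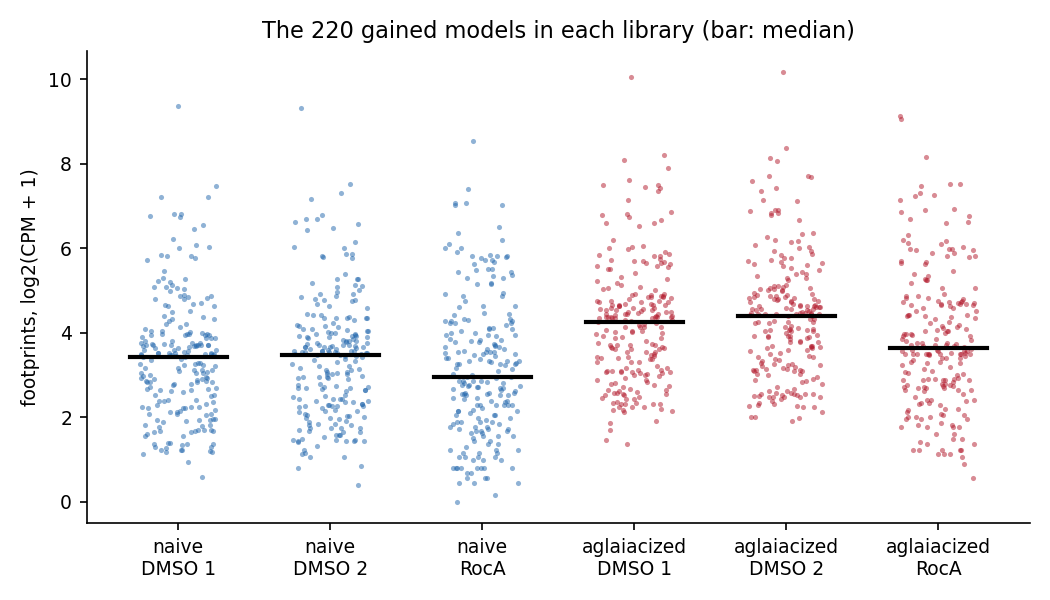
Footprints of the 220 gained models, as log2(CPM + 1), in each of the 6 libraries; each point is a model and each bar the median. The medians of both aglaiacized DMSO libraries, 18.2 and 20.1 CPM, lie above those of the naive ones, 9.83 and 10.2 CPM. The median was 6.69 CPM in naive RocA and 11.4 CPM in aglaiacized RocA. CPM uses library totals alone, whereas the edgeR fit below adds TMM factors, 0.755 in naive RocA and 1.13 and 1.14 in naive DMSO. A model can therefore be lower by CPM under RocA and still have a fitted rise.

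The aglaiacized DMSO libraries did not carry the gain equally. In 188 of 220 members (85.5%) replicate 2 lay above replicate 1, against 49.3% of the other models that met the count minimum. Against the naive DMSO mean, the median log2 ratio of the members was 0.84 in aglaiacized replicate 1 alone, where 145 members reached 0.8. It was 0.96 in replicate 2 alone, where 210 did. Chosen without aglaiacized DMSO replicate 1, the group would hold 423 models, 210 of them among the 220. Without replicate 2 it would hold 171, of which 142 are among the 220, and with libraries thinned to 1 depth 217, of which 140 are. Between the naive replicates, by contrast, replicate 2 was the higher in 113 members, with a median log2 ratio of 0.0048.

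The member with the largest gain, uc004equ.3, has a listed length of 393 units (the largest over its merged rows, in a unit that is not named). It stood at 11.6 and 9.82 CPM in naive DMSO, 48.6 and 42.6 CPM in aglaiacized DMSO, 1.22 CPM in naive RocA and 7.21 CPM in aglaiacized RocA. It was thus higher in aglaiacized cells in both conditions, and low under RocA in both lines. Its DMSO ratio was 2.02, above 1.51 for the next member. Under RocA it was 5.93-fold higher in aglaiacized cells by CPM, on 60 against 10 counts. The fitted log2 fold change was 2.34, with an SE of 0.43 and an edgeR adjusted p of 9.86e-06.

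The second member by gain, uc003ywn.2, with a listed length of 387, stood at 1.35 and 1.17 CPM in naive DMSO and at 4.50 and 6.12 CPM in aglaiacized DMSO. It had 2.31 CPM in naive RocA and 5.65 CPM in aglaiacized RocA. The aglaiacized RocA library lay between the DMSO libraries of its line, while the naive RocA library lay above both naive DMSO libraries. Between the lines under RocA its log2 fold change was 1.07 (SE 0.41, edgeR adjusted p = 0.0432), on 47 and 19 counts. That call was not made without naive DMSO replicate 1 (edgeR adjusted p = 0.0538) or replicate 2 (edgeR adjusted p = 0.0536), and over all alternatives the adjusted p ran from 0.0102 with total counts in edgeR to 0.303 in DESeq2.

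Most members also stood higher in aglaiacized cells in the RocA libraries. The RocA ratio is defined like the DMSO ratio, from the 1 aglaiacized and the 1 naive RocA library. Its median was 0.45 over the members, with quartiles of 0.21 and 0.76, and -0.0039 over the other models, with quartiles of -0.38 and 0.38. It was above 0 in 182 of 220 members (82.7%), where centring on the median puts 50% of all 28104 models above 0. It reached 0.8 in 46 members (20.9%), against 7.37% of all models, and it was at -0.8 or less in 3 members, against 8.34%. In 37 members it was at least as large as the member's own DMSO ratio. Because the members were chosen for a high DMSO ratio, a smaller value in other libraries is no measure of a change of the gain under RocA. With 1 RocA library per line, these values have no replicate check.

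**Figure D2:**
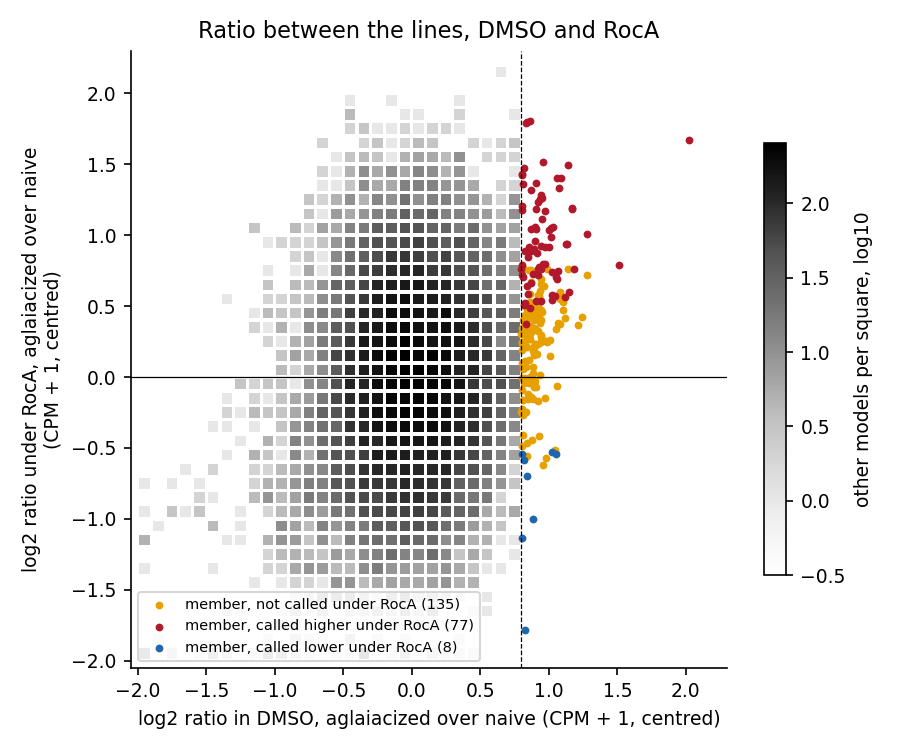
Centred log2 ratio of aglaiacized over naive cells in DMSO (x axis) and under RocA (y axis), both from CPM + 1; grey squares count the other 27884 models, points are the 220 members, and the dashed line is the threshold of 0.8. Of the members, 77 were called higher in aglaiacized cells under RocA, 8 lower and 135 neither, and 182 lie above 0 on the y axis.

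In the edgeR fit over all 31237 tested models, which held all 220 members, the members stood on the high side in aglaiacized RocA over naive RocA. In all, 77 members (35.0%) were called higher, against 12.5% of all tested models, and 8 (3.64%) were called lower, against 15.3%. Calls in either direction were made for 27.8% of all tested models. In DMSO, the contrast that chose the members, all 220 were called higher, where 35.6% of all tested models were called, 19.0% higher and 16.6% lower, and nothing is read from that. The median log2 fold change was 0.56 over the members and 0.013 over all models, and 186 members had a fitted value above 0. Among the 77, 47 were higher by at least 2-fold. The spread in this fit comes from the DMSO pairs, and each RocA library was assumed to vary like them, so the test compares 2 libraries. When libraries were scaled by total counts alone, the median of all models moved to 0.23 and that of the members to 0.78, with 134 members called higher and 3 lower, against 21.3% and 9.66% of all models. DESeq2 gave an adjusted p to 193 members and called 49 higher and 4 lower, against 8.07% and 11.4% of all models with one.

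The SE of these values was smaller at higher counts, while members were called higher at every depth. Depth is cut here on the naive RocA count, the denominator of the ratio, so few counts there favour a higher call. Calls over all tested models were not split by depth, and without a split 12.5% were higher and 15.3% lower. Naive RocA held under 20 counts for 48 members, of which 19 were called higher, and the median SE of their log2 fold change was 0.56. For the 97 members with 20 to 99 counts the median SE was 0.29, with 30 called higher and 2 lower. For the 75 members with 100 counts or more it was 0.17, with 28 called higher and 6 lower. The 135 members without a call had fitted values from -0.67 to 1.86, with a median of 0.37, so a gain of the size seen in DMSO was within the range of what was not called. A single member had 0 counts in naive RocA and 7 in aglaiacized RocA. Against a floor of 3 counts in the naive RocA library, or 0.365 CPM, it was 2.31-fold higher in aglaiacized RocA by CPM. That fold takes the 7 counts as exact and uses no TMM factors, so it is no strict lower bound. The edgeR adjusted p for this member was 0.0218.

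The most abundant members rest on the most counts. The member with the highest counts had 12148 and 11906 counts in naive DMSO and 22617 and 32660 in aglaiacized DMSO, or 658, 636, 1060 and 1149 CPM. Under RocA it had 1390 counts (169 CPM) in naive and 4438 (534 CPM) in aglaiacized cells. By CPM the lines stood 1.71-fold apart in DMSO and 3.16-fold apart under RocA. Such CPM folds are not centred, and the median log2 ratio of all 28104 models was -0.034 in DMSO and 0.22 under RocA. The fitted log2 fold change between the lines was 0.83 in DMSO and 1.44 under RocA (SE 0.11, edgeR adjusted p = 9.36e-21). RocA lowered this member in both lines, with log2 fold changes of -1.35 in naive and -0.75 in aglaiacized cells.

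The next most abundant member went the other way under RocA. It stood at 178 and 181 CPM in naive DMSO, 295 and 332 CPM in aglaiacized DMSO, 369 CPM in naive RocA and 557 CPM in aglaiacized RocA. Both RocA libraries lay above every DMSO library of their line. The lines were 1.75-fold apart in DMSO and 1.51-fold apart under RocA (log2 fold change 0.37, SE 0.11, edgeR adjusted p = 0.00552). Next by abundance, another member stood at 147 and 157 CPM in naive DMSO, 270 and 267 CPM in aglaiacized DMSO, 129 CPM in naive RocA and 284 CPM in aglaiacized RocA. By CPM it was 1.77-fold higher in aglaiacized cells in DMSO and 2.21-fold higher under RocA. In the edgeR fit, however, its log2 fold change between the lines was 0.88 in DMSO and 0.92 under RocA. The edgeR fit scales libraries otherwise than CPM does. By that fit its log2 fold change under RocA was 0.35 in naive cells, although its naive CPM was lower under RocA. In aglaiacized cells the fitted value was 0.38. These 3 models were picked for their abundance after the values were seen.

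At the other end, 8 members in 7 groups of neighbouring rows were lower in aglaiacized than in naive cells once RocA was present. Their log2 fold changes between the lines under RocA ran from -1.96 to -0.54. All 8 had called rises under RocA in naive cells, by 1.70 to 3.47 on the log2 scale. Such a rise was also called for 4215 of the 4764 tested models called lower, so it is not particular to these 8. In aglaiacized cells the fitted change of the 8 ran from -1.20 to 1.41. Their listed lengths ran from 65 to 1000, with a median of 249. These naive rises share the naive RocA library with the comparison between the lines that chose the 8 models.

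The lowest of them, uc001nfv.4, with a listed length of 142, stood at 3.25 and 3.42 CPM in naive DMSO and 5.86 and 7.18 CPM in aglaiacized DMSO. It reached 17.6 CPM in naive RocA and was at 5.29 CPM in aglaiacized RocA. The naive RocA library was above all others, and the aglaiacized RocA library was just below the DMSO libraries of its line. Between the lines under RocA the log2 fold change was -1.96 (SE 0.27, edgeR adjusted p = 6.02e-09), on 44 and 145 counts.

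The second lowest, uc003cya.3, with a listed length of 481, rests on fewer counts. It stood at 1.46 and 1.23 CPM in naive DMSO, 2.25 and 3.76 CPM in aglaiacized DMSO, 2.92 CPM in naive RocA and 1.08 CPM in aglaiacized RocA. The order of the lines was thus opposite in DMSO and under RocA. Its log2 fold change between the lines under RocA was -1.65 (SE 0.57, edgeR adjusted p = 0.0225), on 9 and 24 counts, and DESeq2 gave it no adjusted p-value (log2 fold change -1.70).

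**Figure D3:**
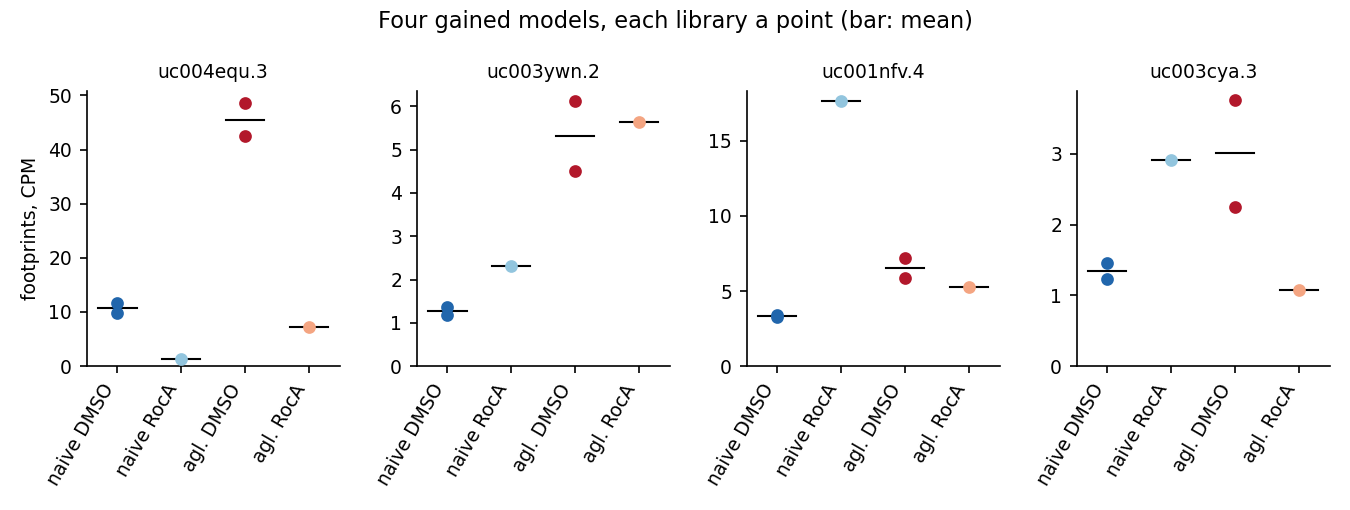
Footprints in CPM of uc004equ.3 and uc003ywn.2, the members with the largest gain in DMSO, and of uc001nfv.4 and uc003cya.3, the members lowest in aglaiacized over naive RocA; each point is a library, bars are group means, and each panel has its own scale from 0. The first pair stayed above naive cells under RocA (7.21 against 1.22 CPM and 5.65 against 2.31 CPM), and the second pair lay below (5.29 against 17.6 CPM and 1.08 against 2.92 CPM).

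RocA moved members both up and down in each line. In naive cells, where 66.3% of all tested models were called in either direction, 107 members (48.6%) were called as rising under RocA, against 32.4% of all tested models, and 53 (24.1%) as falling, against 33.9%. In aglaiacized cells, where 48.9% were called in either direction, 58 members (26.4%) were called as rising, against 24.5%, and 82 (37.3%) as falling, against 24.3%. The median log2 fold change of the members was 0.42 in naive cells, where that of all models was -0.098, and -0.20 in aglaiacized cells, where that of all models was -0.037. The rule chose low naive and high aglaiacized DMSO values, and these same libraries are the controls here, so part of the offset between the lines is fixed by the choice, and the numbers are a description. The same holds for the difference between the responses, which was called for 69 members, 63 lower in aglaiacized cells and 6 higher. Over all tested models it was called for 25.6%, 14.3% lower and 11.3% higher. Scaled by total counts alone, all models shifted down in naive cells, to a median of -0.68, and the member median there was -0.16. In that fit 64 members (29.1%) were called as rising and 93 (42.3%) as falling, against 18.4% and 53.2% of all models.

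**Figure D4:**
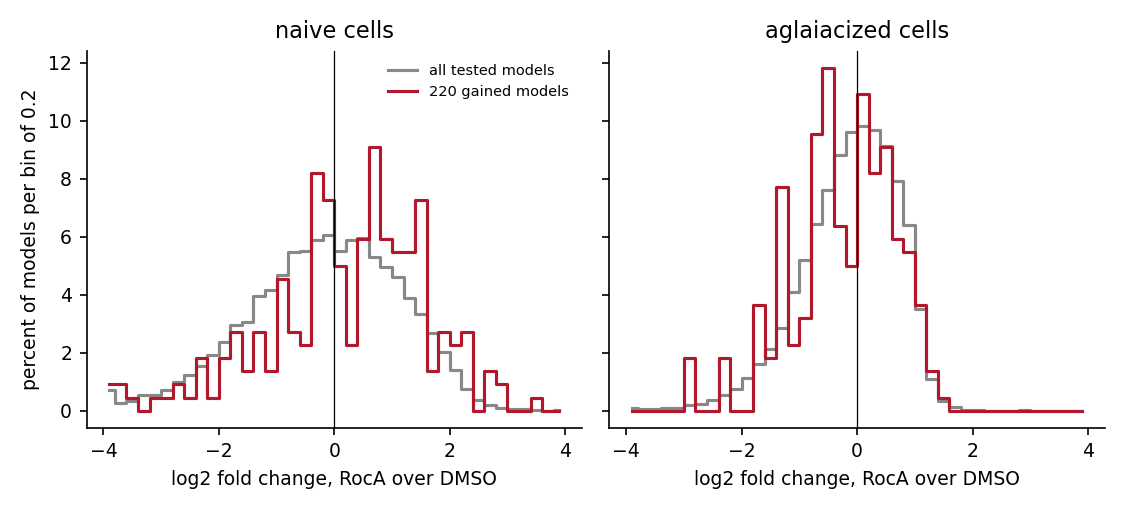
Share of models (percent per bin of 0.2) by edgeR log2 fold change of RocA over DMSO in naive cells (left) and aglaiacized cells (right), for the 220 members and for all 31237 tested models, with values past the axis in the end bins. The member median is 0.42 against -0.098 for all models in naive cells, and -0.20 against -0.037 in aglaiacized cells.

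Set side by side, a rise in both lines was called for 58 members (26.4%), against 20.9% of all tested models, and a fall in both for 45 (20.5%), against 20.1%. A rise in naive cells with no call in aglaiacized cells was found for 44 members (20%), against 11.1%, and a fall with none for 8 (3.64%), against 13.4%. A fall in aglaiacized cells with no call in naive cells was found for 32 (14.5%), against 3.92%, and 28 members (12.7%) were called in neither line, against 26.6%. Opposite calls were made for 5 members (2.27%), each a rise in naive and a fall in aglaiacized cells, against 0.314% of all models. The DMSO libraries that chose the members stand in all of these classes.

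Members were also split by their call in naive cells. The 53 members with a called fall in naive cells had a median RocA response of -1.44 there and -1.27 in the aglaiacized line. Between the lines under RocA their median was 1.40, and 39 of them (73.6%) were called higher in aglaiacized cells and none lower. Of all 10589 tested models with a called naive fall, 30.8% were called higher and 0.680% lower. For the 107 members with a called rise in naive cells, the median response was 1.22 there and 0.45 in the aglaiacized line. Their median between the lines under RocA was 0.29, with 22 (20.6%) called higher and 8 (7.48%) lower. Of all 10109 tested models with a called naive rise, 1.18% were called higher and 41.7% lower. The naive RocA library stands in both measures, so a low value there lowers one and raises the other. The gain in DMSO had medians of 1.02 and 1.02 for the 2 sets in the edgeR fit.

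Many members were neighbours in the tables. Neighbouring rows can be isoforms of 1 gene that share reads, and the 220 members fell into 96 groups when rows at most 10 apart were joined. Of these groups, 47 held 1 member, 7 held 5 or more, and the largest held 18; members of 1 group may share reads. With the most abundant member of each group taken alone, the median RocA ratio was 0.37, 72 of 96 were above 0, 32 were called higher under RocA and 7 lower. Over all tested models, not reduced to 1 per group, 12.5% were called higher and 15.3% lower.

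The group of 18 members had 97 to 268 counts in naive DMSO replicate 1 and 203 to 518 in aglaiacized DMSO replicate 1. In naive RocA it had 21 to 106 counts and in aglaiacized RocA 32 to 183. Its fitted log2 fold change between the lines under RocA had a median of 0.57, yet the call was made for 2 of the 18 models. A higher call was made for 12.5% of all tested models, which is the share to set beside each group here. A group of 7 members, with listed lengths of 105 to 209, had 135 to 270 counts in naive DMSO replicate 1, 218 to 351 in replicate 2, and 437 to 687 and 671 to 1080 in aglaiacized DMSO. Under RocA these 7 had 32 to 92 counts in naive and 100 to 190 in aglaiacized cells, and all 7 were called higher, by a median of 1.05. Another group of 7, with listed lengths of 129 to 385, had 81 to 598 counts in naive and 203 to 1167 in aglaiacized RocA, and all 7 were called higher, by a median of 0.81. Their median fitted response to RocA was 0.64 for the naive line and 0.45 for the aglaiacized line.

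A group of 5 members with listed lengths of 311 to 397 had 86 to 120 counts in naive DMSO replicate 1 and 201 to 269 in aglaiacized DMSO replicate 1. It had 65 to 92 counts in naive RocA and 122 to 166 in aglaiacized RocA, with a median of 1.42 for the response to RocA in naive and 0.81 in aglaiacized cells. Of the 5, 4 were called higher in aglaiacized RocA, against 12.5% of all tested models. A second group of 5 members, with listed lengths of 88 to 406, had fitted responses of the opposite sign, with medians of -1.29 for the naive line and -1.28 for the aglaiacized one. It had 6 to 41 counts in naive RocA, and 1 of the 5 was called higher. A group of 13 members ranged widely, with 3 to 455 counts in naive RocA and 25 to 597 in aglaiacized RocA, and 8 of the 13 were called higher. The remaining large group held 8 members, of which 4 were called higher, with a median of 0.51 between the lines under RocA.

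The members also lay unevenly along the tables. In windows of 100 consecutive rows, 708 windows held at least 20 models that met the count minimum, and 81 of these held a member. The window of rows 16901 to 17000 held 25 members in 3 groups of neighbours, among 54 models. The window of rows 68801 to 68900 held 18 among 47. The former had the highest median DMSO ratio of the 708 windows, 0.79, and the latter the second highest, 0.58, where the quartiles over all windows were -0.14 and 0.15. Both medians include the members, which were chosen for high DMSO ratios. Over the models that are no members, the medians were 0.64 in the former window and 0.12 in the latter. The latter value lies within the quartiles of all windows. The deposited tables give no coordinates, and the relation of row order to the genome was not tested.

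In rows 16901 to 17000 the models that are no members also had raised DMSO ratios. This window was singled out after the DMSO values were seen. The other 29 models of that window had DMSO ratios from 0.12 to 0.79, with a median of 0.64, and all 29 were above 0. Under RocA, in libraries the rule did not use, 27 of these 29 models had a ratio above 0, with a median of 0.76. Neighbouring rows can share reads, so these 29 models may in part repeat the reads of the members beside them. Whether they shifted apart from the members was not tested. The 25 members of the window had a median RocA ratio of 0.90, 22 were above 0, and 15 were called higher and none lower. Among all tested models 12.5% were called higher and 15.3% lower. By its median RocA ratio of 0.81 this window had rank 3 of 708. The members there did not respond to RocA alike, with log2 fold changes in naive cells from -3.18 to 1.52.

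A wider stretch of 10 windows around it, rows 16501 to 17500, had median DMSO ratios above the upper quartile in every window. It held 372 models that met the count minimum, and 30 members. The DMSO ratio was above 0 in 93.0% of the 372 and the RocA ratio in 77.4%, with medians of 0.41 and 0.41. The 342 models there that are no members had medians of 0.39 and 0.41. This stretch was picked for its DMSO ratios after they were seen, and its values are a description. Without the window that holds most members, the median RocA ratio of the remaining 195 was 0.44. Of these, 62 were called higher and 8 lower, against 12.5% and 15.3% of all tested models.

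Over the tables as a whole, models near a member had higher DMSO ratios than models far from one, while their RocA ratios had medians near 0. Models 11 to 50 rows from the nearest member had a median DMSO ratio of 0.16 (n = 2391) and a median RocA ratio of -0.0092. At 51 to 100 rows the medians were 0.13 and -0.041 (n = 2315), and at over 500 rows they were -0.076 and -0.00024 (n = 11654). Over the windows with 5 or more members, the RocA medians ran from -0.30 to 0.81.

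**Figure D5:**
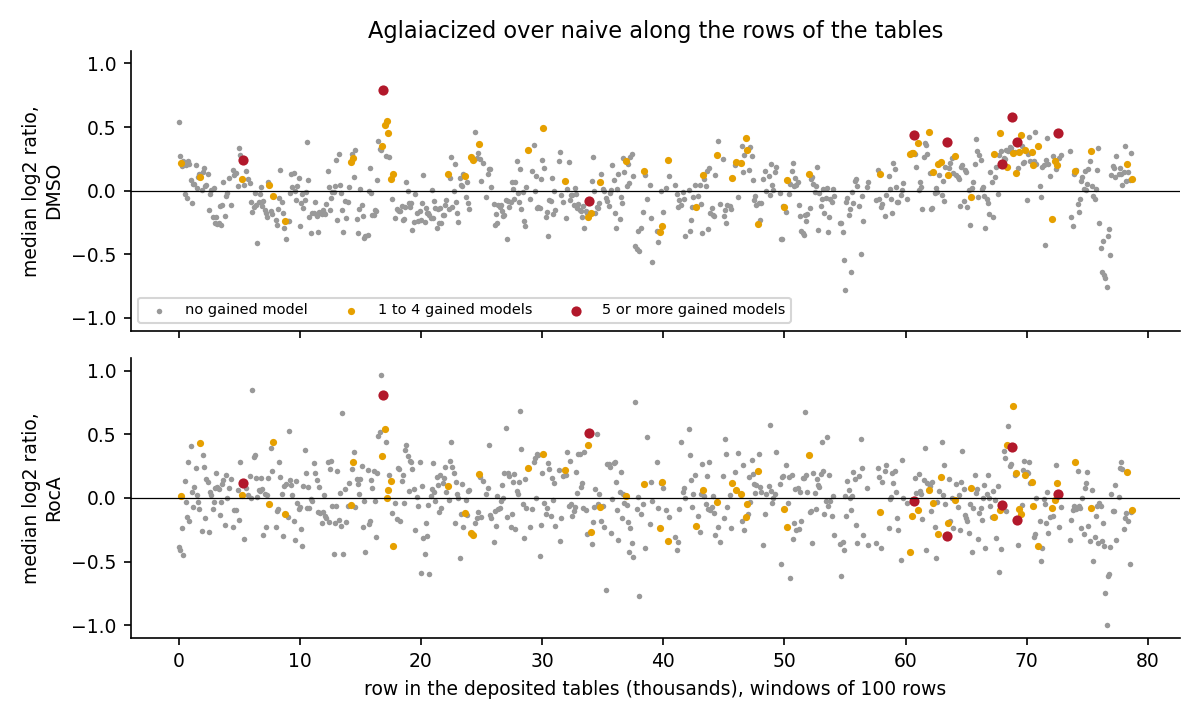
Median centred log2 ratio of aglaiacized over naive cells in windows of 100 rows of the deposited tables, in DMSO (top) and under RocA (bottom); each point is a window with at least 20 models, coloured by how many gained models it holds. The window of rows 16901 to 17000 stands at 0.79 in DMSO and 0.81 under RocA.

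By listed length, the median member was shorter than the median of the other models that met the count minimum. Their median listed length was 373, with quartiles of 202 and 594, against 432, with quartiles of 256 and 700. Lengths of 1000 or more were found in 11 members (5.0%), against 12% of the others, and lengths of 100 or less in 7 (3.18%), against 2.73%. The longest member had 1695 length units and the shortest 52. These lengths were not tested, since models that share reads are not replicates.

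Per length, the median member stood below the median of the other models in naive DMSO and above it in aglaiacized DMSO. The same DMSO libraries chose the members, so the move between the lines is largely fixed by the choice and is a description. The median level in naive DMSO was 2.02 CPM per 100 length units for members and 2.71 for the others. In aglaiacized DMSO the median level was 3.92 for members and 2.63 for the others. The quartiles overlapped widely, at 2.57 and 13.4 for members and 1.16 and 6.90 for the others in aglaiacized DMSO. In naive DMSO they were nearly alike, at 1.14 and 6.66 for members and 1.24 and 6.96 for the others.

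The shorter members had higher fitted responses to RocA than the longer ones in both lines, which was not tested. All tested models were not split by length, so whether this is particular to the members is not known. The members split here also include groups of neighbours that may share reads. The 111 members with listed lengths up to 373 had median log2 fold changes under RocA of 0.82 in naive and 0.20 in aglaiacized cells. The 109 members of 378 or more had medians of -0.18 and -0.46. Between the lines under RocA, the medians were 0.54 for the shorter and 0.60 for the longer members, with 40 and 37 called higher. Of all tested models, at any length, 12.5% were called higher.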

How the data were processed

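The authors deposited raw footprint counts, 1 table per library, with a listed length per row. Per the submitters' processing notes, CASAVA 1.8, Bowtie2 2.1.0, TopHat2 2.0.9 and the build hg19 were used. For the counting program and multiply mapped reads, nothing was given in the sources used here. Of 82960 rows, 19269 had no length and held 0 counts. Rows with both a length and counts (50582) were merged into 38543 models with distinct counts over the 6 libraries. The deposited length column, of a unit that is not stated, was not converted. A merged model took the largest length among its rows and the identifier of its first row. For the 24 members made of more than 1 row, uc004equ.3 and uc003ywn.2 among them, the length may thus belong to another row.

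CPM used the total of all models. Tests used edgeR 4.0.16 in R 4.3.3 (quasi-likelihood, TMM factors, 1 fit of 4 groups with 2 residual degrees of freedom) on the 31237 models whose mean count reached 20. P-values were two-sided and adjusted by Benjamini-Hochberg over all of these, with a threshold of 0.05. SE is the size of the log2 fold change over the root of F. Alternatives were RLE factors, total counts, other count minimums, DESeq2 1.42.0, unmerged rows, thinned libraries, each DMSO library left out and a replicate block.

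The members, lists and tests were chosen with earlier results of these data known. The rule for named models took the 2 members with the largest DMSO ratio and the 2 with the lowest fitted ratio between the lines under RocA, at most 1 per group of rows no more than 10 apart; identifiers were limited to these 4 because they have no gene names. The gene list planned for eIF4A and its partners could not be run for the same reason. Counting floors cover counting error.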

Additional observations from a re-analysis of the deposited data

Results flagged for a closer look

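In 69 of 220 members the edgeR test called the response to RocA different in the 2 lines, with 63 members lower in aglaiacized cells (14.3% of all tested models were called so) and 6 higher (11.3% of all tested models). These calls use the DMSO libraries that chose the members, so the direction is partly fixed by the choice, and the spread between RocA libraries was not measured.

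The difference of responses, aglaiacized minus naive, was -3.00 on the log2 scale for uc001nfv.4 (edgeR adjusted p = 3.23e-12), which was called as rising by 2.98 in naive cells and stood at -0.013 in aglaiacized cells. For uc003cya.3 it was -2.90 (edgeR adjusted p = 0.000181), from a called rise of 1.70 in naive cells and a called fall of -1.20 in aglaiacized cells. The latter fall was not called without aglaiacized DMSO replicate 2 (log2 fold change -0.75, edgeR adjusted p = 0.236) or by DESeq2 (DESeq2 adjusted p = 0.277). DESeq2 gave the difference itself no adjusted p-value (log2 difference -2.93), and this model was not tested with thinned libraries.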

How the results depend on the processing

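The cause of the shifts below was not tested, and in some of these settings fewer models or libraries enter. The group held 342 models with a pseudocount of 0.5 CPM, 48 with 5 CPM, 915 at a threshold of 0.6 and 44 at 1, and 171 to 423 when a DMSO library was left out. The median RocA ratio was 0.33 with 5 CPM and 0.32 to 0.54 over the groups chosen without a DMSO library. For the lines under RocA, total counts gave 134 members higher and 3 lower (21.3% and 9.66% of all models). DESeq2 gave 49 and 4 (8.07% and 11.4% of models with an adjusted p), and it called 4666 of all models. No filter gave 5 members lower, and 4127 of all 38543 models lower. Taking 1 model per group of neighbours gave 32 of 96 higher, against 12.5% of all tested models. Total counts gave 64 rises and 93 falls of members in naive cells (18.4% and 53.2% of all models), 32 rises in aglaiacized cells (13.8%), and differences of responses in 12 members above and 40 below 0 (21.2% and 7.91%). DESeq2 gave 48 falls of members in aglaiacized cells and 35 differences below 0 (13.2% and 12.1% of models with an adjusted p), and, over all models, it called 9270 responses in aglaiacized cells, 3941 differences of responses and 3586 models between the lines in DMSO. Thinned libraries gave 6821 for the lines in DMSO, and leaving out a DMSO library gave 5185 to 14059. With total counts the share of all calls that were higher moved as follows: lines under RocA, 45.1% to 68.8%; naive response, 48.8% to 25.7%; aglaiacized response, 50.2% to 26.6%; their difference, 44.2% to 72.8%; lines in DMSO, 53.4% to 40.8%. The uncalled change of uc001nfv.4 in aglaiacized cells turned sign with RLE factors (0.029), DESeq2 (0.037), unmerged rows (0.024), thinned libraries (0.12) and without aglaiacized DMSO replicate 2 (0.16; -0.14 without replicate 1). A replicate block on the 4 DMSO libraries gave 10580 calls, and the same 4 without it 11040, with 10548 shared; deviations of libraries with 1 number had r = -0.051 across models, and the RocA libraries carry no number. With each DMSO library left out, the fitted median between the lines under RocA was 0.56 over the members and 0.011 to 0.013 over all models. These medians rest on the same RocA libraries, and the numbers of calls varied for members and for all models.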
